A study of Bos taurus with 12 samples.

Results

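The fibroblast growth factor (FGF) genes described here were 10 named members of the family, of which 6 encode ligands (FGF1, FGF2, FGF5, FGF7, FGF10 and FGF18) and 4 encode receptors (FGFR1, FGFR2, FGFR3 and FGFR4). They were chosen by gene name from the 33714 rows of the mRNA table. A row of its own was found for 9 of them, and FGF7 stood only on a row shared with DTWD1. RNA was sequenced from bovine intramuscular preadipocytes, obtained from newborn animals of the Qinchuan breed (longissimus dorsi), during adipogenic differentiation. Cells were harvested at 0 d, 3 d, 6 d and 9 d, with 3 libraries per day and 12 in all. The 0 d cells had received no inducing agent. The 3 d, 6 d and 9 d cells had been given insulin at 5 μg/mL with IBMX at 0.5 mM and dexamethasone for 48 h, followed by medium with insulin alone at the same dose, so that all 3 later groups were sampled after the cocktail had been withdrawn. No culture was kept without induction for the same time, and the effects of the agents and of time in culture cannot be told apart.

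FGF ligands are secreted proteins that bind receptor tyrosine kinases at the cell surface together with heparan sulphate chains. The activated receptor signals through adaptor proteins to the RAS and MAP kinase cascade, which switches on transcription factors of the ETS family and its own inhibitors of the Sprouty and DUSP families. In adipose tissue, FGF1, FGF2 and FGF10 are known as signals that act on preadipocytes, and in muscle FGFR4 is known from myogenic cells.

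Levels were deposited as FPKM, fragments scaled to transcript length and to the mapped fragments of the library, which allows levels to be set side by side between genes. The FPKM values of a library summed to between 1221194 and 1371794, and the number of reads behind each value is not given by this unit. Differences between days were fitted with limma on log2(FPKM + 0.1) over all 12 libraries, for the 15401 rows with a mean of at least 0.1 FPKM. An mRNA is said below to have risen, fallen or changed where its log2 fold change was over 1 in size and its adjusted p under 0.05. On this scale the change of an mRNA near 0.1 FPKM is understated.

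The cell label was checked against marker lists. The summed FPKM of 8 fibroblast and preadipocyte markers was 24761.1 ± 511.8 at 0 d (SD, n = 3), 50054.3 ± 1392 at 3 d, 49481.4 ± 1271 on day 6 and 63703.1 ± 1373 on day 9. DCN had the highest mean of them over the 12 libraries, and COL1A2 was above it at 0 d. Of the 7 tested, 4 rose and 3 fell at 3 d (PDGFRB, COL1A1 and COL1A2), beside 8.06% and 15.2% of all mRNAs, so the higher sum was carried by DCN, with means of 9949 FPKM at 0 d and 42430.4 at 3 d. DLK1, a marker of preadipocytes, did not exceed 0.13 FPKM in any library. The 6 adipocyte markers with a row of their own summed to 10.4 ± 0.46 at 0 d, 103 ± 5.31 at 3 d, 38.6 ± 0.827 on day 6 and 37.0 ± 4.65 on day 9. FABP4, a fatty acid carrier, made up most of that sum at 3 d and 6 d with means of 91.1 and 26.4 FPKM, but not at 0 d or 9 d with 3.30 and 9.07. ADIPOQ, a defining marker of mature adipocytes, stayed at or below 1.64 FPKM and CEBPA at or below 0.26 FPKM. Of the 6, 3 rose and LEP fell at 3 d, and 4 rose at 6 d and at 9 d (FABP4, LEP, ADIPOQ and CIDEC), where 8.06%, 3.39% and 3.41% of all mRNAs rose and 15.2% fell at 3 d. The means of LEP were 2.34, 0.07, 8.02 and 20.5 FPKM over the days. PLIN1 and PPARG stood only on rows shared with other genes. Skeletal muscle markers were present in every library, and the sum of 7 of them was 876 ± 57.9 at 0 d, 286 ± 15.3 at 3 d, 399 ± 21.3 on day 6 and 314 ± 18.8 on day 9. DES had the highest mean, and PAX7, the eighth gene of the list, had no row. In such bulk samples, fewer cells of a type and less RNA per cell cannot be told apart.

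Smooth muscle and pericyte markers summed to 1980 ± 75.95 FPKM at 0 d, 97.3 ± 6.26 at 3 d, 1730 ± 66.45 on day 6 and 730 ± 43.05 on day 9. ACTA2 had the highest mean of the 6 over the 12 libraries. MYH11 was above it at 3 d (57.2 against 26.8), and the MYH11 values of 3 d were above those of every other day. The other lists were low. The sum of 5 endothelial markers, led by VWF, had daily means of 2.69 to 3.29 FPKM. That of 6 blood and immune markers, led by CD14, lay between 1.2 and 3.57 with PTPRC and HBB at 0 in every library. For 5 epithelial markers, led by CDH1, the range was 2.48 to 8.93 with EPCAM and KRT8 at 0, and for 4 Schwann cell markers, led by S100B, it was 2.95 to 11.1.

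Of the 9 members with a row of their own, 8 passed the filter, and FGF18 was not tested. Between 3 d and 0 d, 4 of the 8 changed, against 23.3% of all mRNAs tested. FGF10 and FGFR2 were higher (8.06% of all mRNAs rose), and FGF5 and FGFR4 were lower (15.2% fell). The changes of FGF5 and FGFR2 lay at the fold threshold. Without the first 3 d library both were lost, which left 2 members called, while 3485 mRNAs were called in place of 3585. Between 6 d and 0 d, 3 of the 8 changed, against 11.4% of all. FGF10 was higher (3.39% of all rose), and FGFR3 and FGFR4 were lower (7.97% fell). Between 9 d and 0 d, 3 changed, against 10.9% of all. FGF1 and FGF10 were higher (3.41% of all rose), and FGFR4 was lower (7.47% fell). The median log2 fold change of the 8 was -0.14, -0.19 and -0.39 in these comparisons, against -0.06, -0.15 and -0.19 over all mRNAs tested. The 3 comparisons share the 0 d libraries. Between consecutive days, 2 members changed from 3 d to 6 d (FGF5 and FGF10, against 19.1% of all mRNAs) and FGF1 alone from 6 d to 9 d (against 4.43%). FGF5 passed the filter only through its 6 d libraries, so the filter favoured its place in the count from 3 d to 6 d. Between 9 d and 3 d, 3 changed (FGF1, FGF10 and FGFR2, against 20.5%). With so few members, these shares describe single genes, which are given below.

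More mRNAs fell than rose against 0 d. When libraries were rescaled by their median ratio, the median log2 fold change over all mRNAs moved up by 0.08 at 3 d, 0.15 at 6 d and 0.19 at 9 d, and by 0.11 for 9 d against 3 d. The share of changed mRNAs that were higher moved from 29.8% to 40.4% at 6 d and from 31.3% to 46.4% at 9 d. Of the 8 members tested, none changed direction under this scaling in any of the 6 comparisons. The scaling moves all mRNAs of a comparison by about the same amount, so this count does not measure how stable the directions are.

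FGF10, a ligand made by mesenchymal cells that binds mainly the epithelial splice form of FGFR2, had the largest change among the members. Its FPKM was 3.68, 3.65 and 3.48 in the 0 d libraries and 172, 166 and 139 in those of 3 d. It was 19.4, 24.5 and 24.6 at 6 d and 16.1, 19.8 and 17.0 at 9 d. All 3 libraries of 3 d stood far above every other library, and those of 6 d and 9 d overlapped each other and lay above all of 0 d. Against 0 d, the log2 fold change was 5.42 ± 0.12 (SE) at 3 d (limma adjusted p = 2.94e-10), 2.62 ± 0.12 at 6 d (1.45e-07) and 2.26 ± 0.12 at 9 d (5.27e-07). The rise at 3 d ranked 26 of 15401 from the highest. FGF10 then fell by 2.80 on the log2 scale from 3 d to 6 d (limma adjusted p = 4.05e-08), while 6 d and 9 d differed by -0.37 (0.0557), which did not pass. The level of FGF10 exceeded that of 43.7% of tested mRNAs at 0 d, 93.4% at 3 d, 74.5% on day 6 and 71.3% on day 9. The summed adipocyte markers were also highest at 3 d, mainly through FABP4. LPL and CEBPA also had their highest daily means at 3 d, with 10.6 and 0.22 FPKM, but CEBPA passed the filter only through its 3 d libraries. ADIPOQ had no such peak, with means of 0.723, 0.70 and 0.603 FPKM at 3 d, 6 d and 9 d and overlapping libraries. LEP, which fell at 3 d, and CIDEC were highest at 9 d. The part of the adipocyte markers in the FGF10 values was not tested.

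FGF1, a ligand that binds all 4 receptors, was low until the last day. Its FPKM was 0.73, 0.64 and 0.65 in the 0 d libraries, 0.56, 0.65 and 0.56 in those of 3 d, and 0.25, 0.22 and 0.56 in those of 6 d. At 9 d it was 3.29, 3.48 and 5.90. The 9 d libraries were thus above all others, and those of 3 d overlapped with 0 d and with 6 d. The log2 fold change from 0 d to 9 d was 2.43 ± 0.28 (limma adjusted p = 0.000111), and from 6 d to 9 d it was 3.31 ± 0.28 (3.14e-05), ranked 16 of 15401 from the highest. At 6 d FGF1 was 0.88 lower than at 0 d on the log2 scale (limma adjusted p = 0.0363), short of the fold threshold. It passed with a pseudocount of 0.01, at -1.07 (adjusted p = 0.0304). Without the third 6 d library it also passed, at -1.21 (adjusted p = 0.00369), and so did 6 d against 3 d, at -1.04 (0.00519).

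FGF2, a ligand stored on heparan sulphate of the matrix and widely used to expand mesenchymal cells in culture, had the highest level of the ligands and the largest spread. Its FPKM was 177, 28.3 and 597 at 0 d and 775, 669 and 807 at 3 d. The later libraries gave 187, 640 and 601 at 6 d and 705, 337 and 895 at 9 d. Those of 3 d were high and close together, and above all of 0 d, whereas the libraries of each other day spread widely and 0 d overlapped with 6 d and 9 d. The SD within days was 1.27 on the log2 scale, larger than that of 98.1% of the mRNAs tested. Against 0 d the log2 fold change was 2.37 ± 0.94 at 3 d (limma adjusted p = 0.0575), 1.53 ± 0.94 at 6 d (0.252) and 2.05 ± 0.94 at 9 d (0.119), and none passed. Without the third 0 d library, the values became 3.40 (limma adjusted p = 0.00663), 2.55 (0.0385) and 3.07 (0.017), and all 3 passed. Without the second 0 d library they became 1.2012 (0.17), 0.3535 (0.745) and 0.875 (0.367), so that single 0 d libraries decided size and call. FGF2 overlaps the NUDT6 gene in the ARS-UCD2.0 annotation of RefSeq. The NUDT6 row lay between 1.29 and 3.41 FPKM in the 12 libraries, and its highest value, 3.41, was in the first 3 d library. How reads in the overlap were assigned is not given in the sources used here.

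FGF5, a ligand known for ending the growth phase of hair follicles, was near the filter throughout. It was listed at 0.18, 0.15 and 0.14 FPKM at 0 d, at 0, 0.03 and 0.06 at 3 d, at 0.24, 0.26 and 0.30 on day 6, and at 0.06, 0.15 and 0.07 on day 9. The 3 d libraries were below all of 0 d and 6 d, and those of 6 d were above all others. FGF5 fell by 1.00 ± 0.21 on the log2 scale from 0 d to 3 d (limma adjusted p = 0.00266) and then rose by 1.52 ± 0.21 to 6 d (0.00021). The former lay at the fold threshold and was lost under rescaling by the median ratio, at -0.93, and without the first 0 d or the first 3 d library, at -0.94 and -0.83. With a pseudocount of 1 both were lost, at -0.17 and 0.30. FGF5 passed the filter only through its 6 d libraries, where it was highest, so the filter favoured the rise to 6 d and its place in that count. From 6 d to 9 d the log2 difference was -0.95 (limma adjusted p = 0.0107), and it passed the fold threshold without the first 6 d library, at -1.0022, or the second 9 d library, at -1.15.

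FGF7, a ligand close to FGF10 in sequence and receptor use, could not be read by itself, because its row also counts DTWD1, a gene for a tRNA-modifying enzyme. The shared row stood at 13.6, 15.1 and 10.97 FPKM at 0 d, 49.3, 38.2 and 47.7 at 3 d, 19.5, 16.6 and 20.8 on day 6, and 38.3, 35.5 and 34.0 on day 9. Its libraries at 0 d were the lowest, those of 6 d came next without overlap, and those of 3 d and 9 d overlapped at the top. The shared row rose by 1.76 ± 0.14 on the log2 scale at 3 d (limma adjusted p = 2.59e-06) and by 1.45 ± 0.14 at 9 d (3.09e-05) against 0 d. The values do not tell which of the genes moved.

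FGF18, a ligand known from cartilage and bone, stayed at or below 0.16 FPKM. It was listed at 0.10, 0.14 and 0.16 at 0 d, and no later library exceeded 0.04. Its mean over the 12 libraries was 0.0475 FPKM, below the filter. In a fit with no filter FGF18 was called lower at 3 d, which made 5 members called there.

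**Figure D1:**
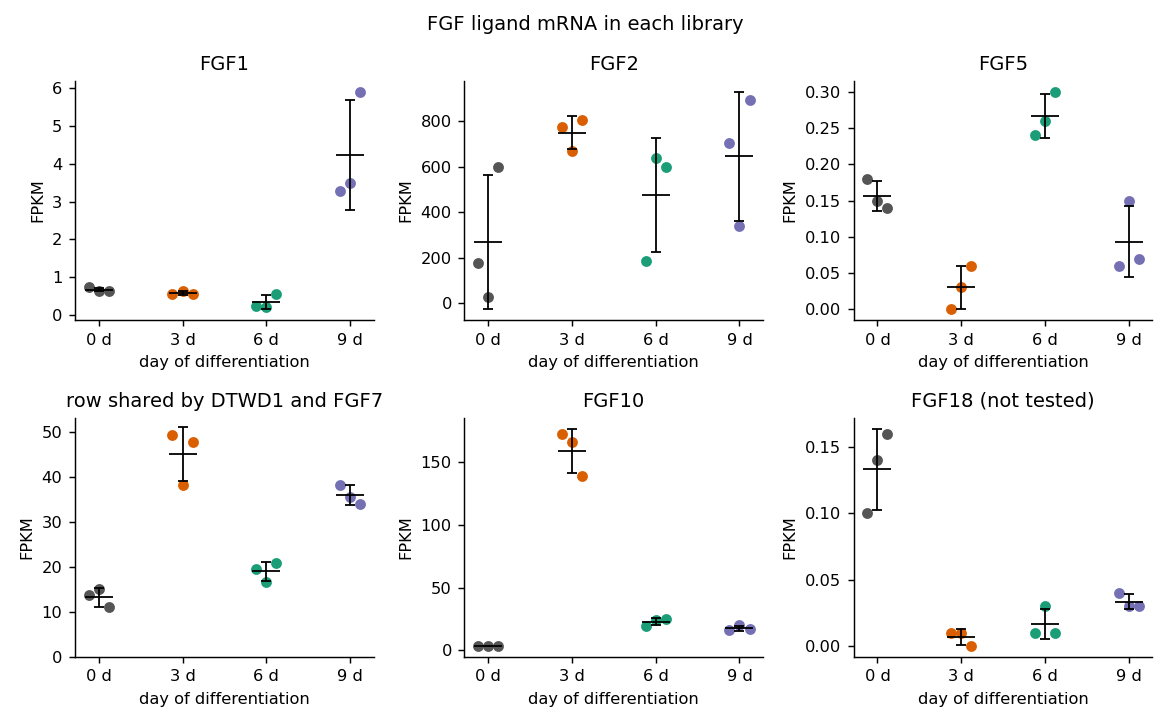
FPKM of the ligands by day of differentiation, on a linear axis with its own scale in each panel. Points are the 3 libraries of a day, and the black bar and whiskers are their mean ± SD. FGF10 peaks at 3 d with 139 to 172 FPKM, FGF1 is high only at 9 d with 3.29 to 5.90, and the FGF2 libraries of 0 d spread from 28.3 to 597.

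Among the receptors, FGFR1, the main receptor of mesenchymal cells, was the most abundant in every library. Its FPKM was 346, 327 and 322 at 0 d and 296, 310 and 309 at 3 d. At 6 d it was 180, 195 and 188, and at 9 d 215, 184 and 204. The libraries of 0 d and 3 d were all above those of 6 d and 9 d, which overlapped each other. The log2 difference from 0 d was -0.12 ± 0.06 at 3 d (limma adjusted p = 0.136), -0.82 ± 0.06 at 6 d (5.3e-06) and -0.72 ± 0.06 at 9 d (1.53e-05). The later values were past the adjusted p but short of the fold threshold, so FGFR1 is not counted among the changed members. Its within-day SD, 0.0724 on the log2 scale, was larger than that of only 8.73% of the tested mRNAs.

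FGFR2, the receptor used by FGF7 and FGF10 in its epithelial splice form, had 10.2, 9.88 and 7.31 FPKM at 0 d and 23.3, 15.9 and 16.4 at 3 d. It had 12.3, 12.2 and 12.7 at 6 d and 6.86, 8.34 and 6.29 at 9 d. All libraries of 3 d were above those of the other days, those of 6 d came next, and 0 d and 9 d overlapped. The rise from 0 d to 3 d was 1.00 ± 0.17 on the log2 scale (limma adjusted p = 0.000764). It lay at the fold threshold and was lost without the third 0 d library, at 0.85, without the first 3 d library, at 0.83, or with a pseudocount of 1, at 0.94. The fall from 3 d to 9 d was -1.34 ± 0.17 (limma adjusted p = 0.000117). FPKM values per gene do not separate the splice forms. The summed FPKM of 8 proliferation genes, led by BIRC5, was 312 ± 29.1 at 0 d, 381 ± 26.4 at 3 d, 242 ± 20.9 on day 6 and 215 ± 20.45 on day 9. Its order over the days differed from that of FGFR2 only in 0 d and 6 d. Of its genes, 0 of the 8 passed by limma at any day against 0 d (4, 3 and 7 had an unadjusted p under 0.05). Over all mRNAs, 23.3%, 11.4% and 10.9% changed in these comparisons. From 3 d to 9 d TOP2A and CDK1 fell, where 20.5% of all mRNAs changed. The part of the proliferation genes in the FGFR2 values was not tested.

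FGFR3, a receptor known from growth plate cartilage, was below 1 FPKM in every library. It had 0.87, 0.91 and 0.77 at 0 d, 0.38, 0.75 and 0.56 at 3 d, 0.20, 0.33 and 0.33 on day 6, and 0.40, 0.36 and 0.39 on day 9. The 0 d libraries were above all others, and those of 3 d and 9 d overlapped. FGFR3 fell by 1.31 ± 0.21 on the log2 scale from 0 d to 6 d (limma adjusted p = 0.000831), a call lost with a pseudocount of 1, at -0.52. At 9 d the difference was -0.97 ± 0.21 (0.00491), short of the fold threshold, which it passed without the third 0 d library, at -1.04, and with a pseudocount of 0.01, at -1.13.

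FGFR4, a receptor found in myogenic cells and liver, fell at each later day against 0 d. Its FPKM was 86.6, 93.7 and 104 at 0 d and 39.3, 41.5 and 38.3 at 3 d. It was 18.6, 18.5 and 22.6 at 6 d and 28.1, 21.99 and 37.2 at 9 d. The libraries of 0 d and of 3 d each stood apart, while 6 d and 9 d overlapped at the bottom. The log2 fold change from 0 d was -1.25 ± 0.17 at 3 d (limma adjusted p = 0.00012), -2.25 ± 0.17 at 6 d (4.17e-06) and -1.73 ± 0.17 at 9 d (3.05e-05). The step from 3 d to 6 d, -0.9976 (limma adjusted p = 0.000678), fell just short of the fold threshold and passed it without the first 3 d library (-1.0047), the third 3 d library (-1.0223) or the third 6 d library (-1.0915).

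Skeletal muscle markers also fell against 0 d. Of the 7 with a row, 6 fell at 3 d, 5 at 6 d and 6 at 9 d against 0 d (15.2%, 7.97% and 7.47% of all mRNAs fell), and none rose. MYOD1, a transcription factor that commits cells to the muscle lineage, had 240, 260 and 303 FPKM at 0 d, 107, 113 and 108 at 3 d, 51.9, 34.0 and 57.3 on day 6, and 56.6, 43.2 and 63.8 on day 9. As for FGFR4, its 0 d libraries were the highest, those of 3 d lay between, and 6 d and 9 d overlapped. From 3 d to 6 d MYOD1 fell, CKM and DES rose, and the other 4 did not pass, where 19.1% of all mRNAs changed. The means were 3.28 and 13.4 FPKM for CKM and 138 and 314 for DES. In this step the median log2 fold change was -0.43 for the list and -0.09 over all mRNAs. FGFR4 itself had -0.9976. The median log2 fold change of the muscle list was -1.43, -1.97 and -1.92 at 3 d, 6 d and 9 d, and its part in the FGFR4 values was not tested.

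**Figure D2:**
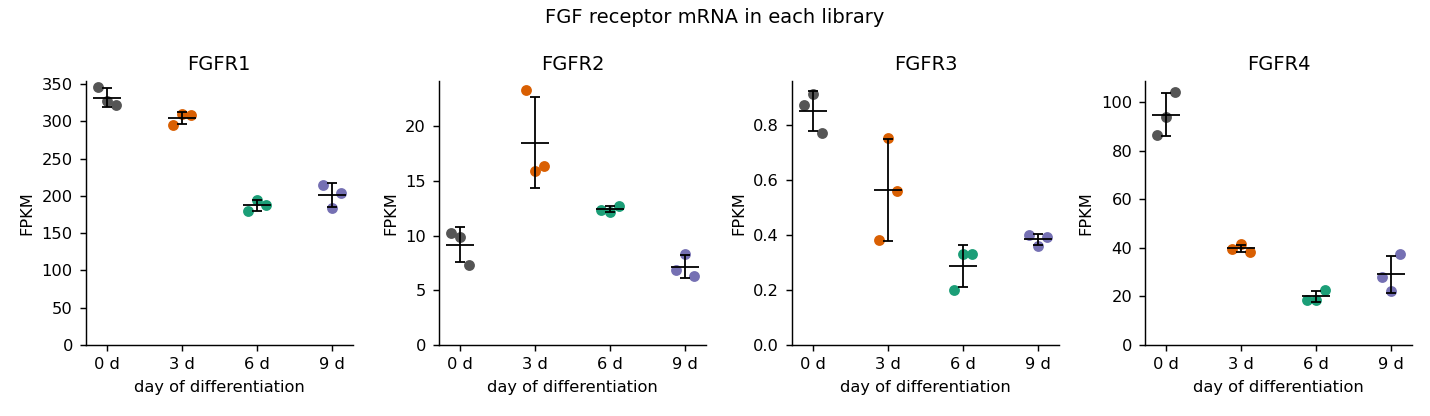
FPKM of the receptors by day of differentiation, each panel on its own linear axis from 0. Points are the 3 libraries of a day, and the black bar and whiskers are their mean ± SD. FGFR1 drops after 3 d, FGFR2 is highest at 3 d, and FGFR3 and FGFR4 are highest at 0 d.

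Taken as a group, the summed FPKM of the 4 receptors was 437 ± 6.40 at 0 d, 364 ± 4.74 at 3 d, 220 ± 7.79 on day 6 and 238 ± 20.2 on day 9. The share of FGFR1 in this sum was 77.97%, 75.8% and 74.1% in the 0 d libraries and between 82.3% and 86.3% in all later ones. FGFR4 made up 19.5%, 21.7% and 24.01% at 0 d and between 8.205% and 15.0% afterwards. FGFR2 moved the other way, from a mean of 2.09% ± 0.356 at 0 d to 5.10% ± 1.21 at 3 d and 5.63% ± 0.229 on day 6, and was at 3.05% ± 0.730 on day 9. FGFR3 did not exceed 0.211% in any library. For FGFR1, FGFR2 and FGFR4, the shares at 0 d did not overlap with those of any later day. The sum was lower at each later day, so a higher share need not mean a higher level. Despite higher shares, mean FPKM was below that of 0 d for FGFR1 at each later day and for FGFR2 at 9 d.

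**Figure D3:**
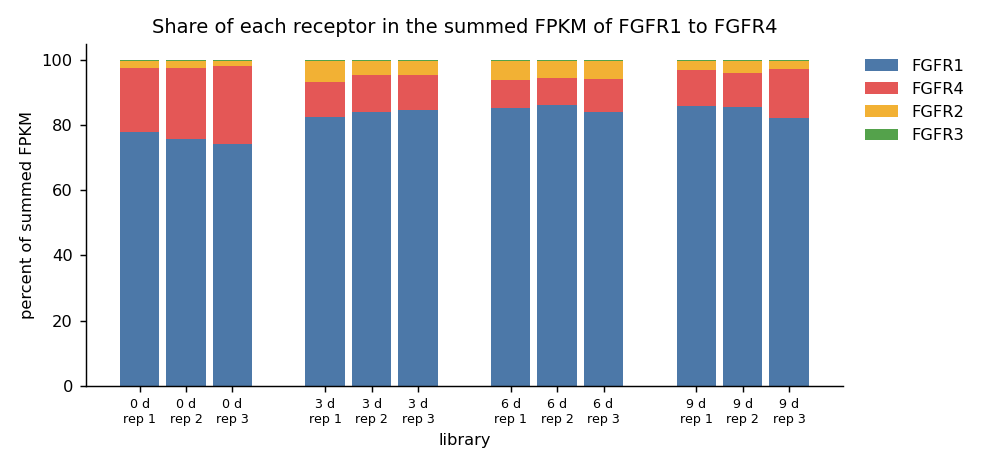
Share of each receptor in the summed FPKM of FGFR1 to FGFR4, in percent, with 1 stacked bar per library. FGFR4 takes 19.5% to 24.01% at 0 d and at most 15.0% later, and FGFR3 is too small to be seen.

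Across the members, levels at 3 d differed from those at 0 d in both directions within ligands and within receptors. At 3 d FGF10, with a mean of 159 FPKM, was below FGF2, with 751, and above every receptor except FGFR1, with 305. At 0 d FGF10 had a mean of 3.603 FPKM, below FGFR4 with 94.9 and FGFR2 with 9.14.

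**Figure D4:**
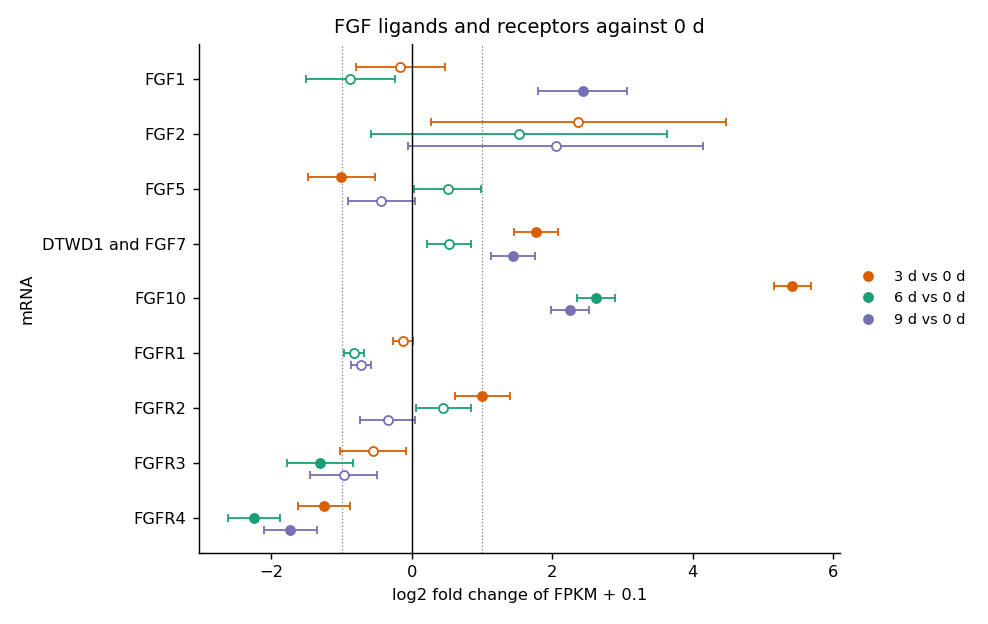
Log2 fold change of FPKM + 0.1 against 0 d for the 8 members tested and the row shared by DTWD1 and FGF7, at 3 d, 6 d and 9 d. Points are limma estimates with 95% confidence intervals, filled where the test was passed, and dotted lines mark the fold threshold. FGF10 at 3 d lies farthest out at 5.42, and the FGF2 intervals are the widest.

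Circular RNAs, closed transcripts found by reads across a back-spliced junction, were counted in the same libraries. The total of such reads was between 5358 and 10729 per library. Among the circRNAs assigned to member genes, 5 were listed, from FGFR4, FGF10, FGFR2 and FGFR1 (2). The circRNA1322 of FGFR4 lies on chromosome 7 from 38579115 to 38581437 (ARS-UCD1.2), spans 6 exons, and was the only one with at least 5 reads. Its counts were 3, 6 and 6 at 0 d, 10, 5 and 5 at 3 d, 3, 3 and 6 on day 6, and 15, 12 and 9 on day 9. The 9 d libraries were above those of 0 d and 6 d and overlapped with those of 3 d. Its deposited signal, back-spliced reads scaled to mapped reads, was 77.8 ± 27.9 at 0 d (SD, n = 3), 99.9 ± 57.9 at 3 d, 68.0 ± 23.9 on day 6 and 197 ± 62.45 on day 9. With edgeR, the log2 fold change from 0 d was 0.23 at 3 d (adjusted p = 1), -0.13 at 6 d (1) and 1.03 at 9 d (0.585). Thus 0 circRNAs of member genes were called in any of the 3 comparisons, 0 had an unadjusted p under 0.05, and 0 were called by DESeq2. Of all 2828 circRNAs tested with edgeR, 0.813%, 0.53% and 0.566% were called at 3 d, 6 d and 9 d. At 9 d the FGFR4 mRNA was lower than at 0 d, while the scaled signal of circRNA1322 had a higher mean but its change did not pass. The difference between these changes was not tested. The other circRNAs had 3 reads or fewer in all. They were ciRNA1024 of FGF10 with 3 reads in 1 library, circRNA7610 of FGFR2 with 3, circRNA6348 of FGFR1 with 3 and circRNA6349 of FGFR1 with 1, too few for any comparison of days.

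The remaining ligands of the family were mostly silent. Of 16, all had a row, 6 were at 0 in every library, and 3 passed the filter. Of these 3, FGF11 and FGF19 fell against 0 d at 3 d, 6 d and 9 d (15.2%, 7.97% and 7.47% of all mRNAs fell), and FGF22 did not pass at any day. FGF19 passed the filter only through its 0 d libraries, where it was highest, so the filter favoured its falls and this count. FGF11, which stays inside the cell and binds ion channels, had 19.2, 19.2 and 18.9 FPKM at 0 d and 7.26, 7.02 and 8.50 at 3 d. It had 5.94, 4.48 and 6.24 at 6 d and 10.3, 7.81 and 9.56 at 9 d. Every later library was below those of 0 d, and the log2 fold change was -1.78 ± 0.14 at 6 d (limma adjusted p = 6.59e-06). At 9 d it was -1.05 (0.000268), which was lost under rescaling, at -0.85, with a pseudocount of 1, at -0.98, and without the second 9 d library, at -0.94. FGF19, a hormone-like ligand of the gut that acts through KLB, had 0.47, 0.56 and 0.66 FPKM at 0 d and was listed at 0 in all 3 libraries of 3 d (limma adjusted p = 1.67e-07) and in 2 of 6 d. At 9 d it stood at 0.10 in each library. With a pseudocount of 1, all 3 of its calls were lost to the fold threshold.

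Co-receptors and other proteins that bind FGF ligands or receptors at the cell surface made up a list of 21, of which 14 were tested. At 3 d 3 rose and 5 fell, at 6 d 1 rose and 2 fell, and at 9 d 3 rose and 1 fell, where 23.3%, 11.4% and 10.9% of all mRNAs changed. Their median log2 fold change was -0.31, -0.02 and 0.14, against -0.06, -0.15 and -0.19 over all mRNAs. ANOS1, a secreted protein that binds heparan sulphate and modulates FGFR1, had 0.06, 0.02 and 0.02 FPKM at 0 d and 2.38, 2.36 and 2.57 at 3 d, and was back at or below 0.15 at 6 d and 9 d. Its log2 fold change at 3 d was 4.26 ± 0.18 (limma adjusted p = 3.04e-08). ANOS1 passed the filter only through its 3 d libraries, so the filter favoured this rise and its place in the count at 3 d. FLRT2, a membrane protein whose family binds FGFR1, had means of 288, 226, 71.8 and 80.3 FPKM at 0 d, 3 d, 6 d and 9 d, and fell by 2.0023 on the log2 scale at 6 d and by 1.84 at 9 d. Thus FLRT2, like FGFR1, was lower at 6 d and 9 d than at 0 d and 3 d.

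The same list holds heparan sulphate proteoglycans. GPC4, a glypican anchored in the membrane, had 52.2, 52.8 and 52.9 FPKM at 0 d, 8.09, 6.71 and 6.00 at 3 d, and between 43.5 and 54.3 afterwards. Its 3 d libraries were below all others, with a log2 fold change of -2.92 ± 0.10. SDC3, a syndecan of muscle and nerve, had 67.2, 62.2 and 66.6 at 0 d and 1.73, 7.51 and 2.07 at 3 d, a change of -4.39 ± 0.53. At 6 d its values of 29.6, 10.2 and 29.4 gave -1.65 (limma adjusted p = 0.0353), a call lost in the fit without any 1 of the 0 d libraries (adjusted p of 0.0732 to 0.0839), without the second 6 d library (-1.15, adjusted p = 0.12) and under rescaling (0.0558). SDC1, a syndecan with the highest mean of the list over the 12 libraries, had means of 987, 389, 1349 and 2083 FPKM over the 4 days. It fell by 1.31 on the log2 scale at 3 d and rose by 1.11 at 9 d against 0 d, the latter lost without the second 0 d library, at 0.88.

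Among 18 enzymes that build or trim heparan sulphate, 12 were tested. At 3 d 3 rose and 1 fell, and at 6 d and at 9 d 2 rose and 1 fell, against 23.3%, 11.4% and 10.9% of all mRNAs changed. The median log2 fold change was 0.13, 0.04 and 0.25, against -0.06, -0.15 and -0.19 over all mRNAs. HS3ST1, which adds 3-O-sulphate, had 0.56, 0.28 and 0.60 FPKM at 0 d, 1.25, 1.18 and 1.26 at 3 d, 2.94, 2.03 and 4.03 on day 6, and 8.96, 9.77 and 8.72 on day 9. Each day stood above the one before with no overlap, and the log2 fold change at 9 d was 4.04 ± 0.26 (limma adjusted p = 2.03e-06). At 3 d it was 1.25, 0.97 without the second 0 d library and 0.60 with a pseudocount of 1, both short of the fold threshold. The 6-O-sulphotransferases were HS6ST2, at daily means of 0.177, 0.783, 0.653 and 0.26 FPKM, and HS6ST1 at 2.47, 2.40, 0.99 and 0.957. Against 0 d, HS6ST2 rose by 1.68 on the log2 scale at 3 d and by 1.44 at 6 d, and HS6ST1 fell by 1.24 at 6 d and by 1.28 at 9 d. With a pseudocount of 1 these calls were lost, at 0.60 and 0.49 for HS6ST2 and at -0.80 and -0.83 for HS6ST1. SULF2, which removes 6-O-sulphate outside the cell, fell by 1.42 at 3 d. EXT1, which had the highest mean of the list over the 12 libraries and is part of the enzyme that extends the chain, passed at no day against 0 d, with 79.9, 202 and 91.7 FPKM at 0 d already spread widely.

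Of 18 genes that relay the signal inside the cell, 17 were tested. At 3 d 1 rose and 1 fell, at 6 d 2 fell and at 9 d 1 fell, beside 23.3%, 11.4% and 10.9% of all mRNAs changed. The medians were -0.28, -0.19 and -0.18, against -0.06, -0.15 and -0.19 over all mRNAs. PLCG1, a phospholipase that binds the activated receptor, had 7.88, 10.2 and 8.51 FPKM at 0 d and 28.3, 34.5 and 26.0 at 3 d, and was between 7.07 and 9.97 later. Its rise at 3 d was 1.73 ± 0.14 on the log2 scale (limma adjusted p = 3.6e-06). GAB1, an adaptor, had daily means of 26.3, 12.9, 10.6 and 9.04 FPKM and fell by 1.53 at 9 d. At 3 d its log2 fold change of -1.03 was lost with a pseudocount of 1, at -0.98, under rescaling, at -0.94, and without the second 0 d, the second 3 d or the third 3 d library, at -0.96, -0.96 and -0.99. FRS2, the adaptor that links the receptors to RAS, had 46.6, 133 and 48.2 FPKM at 0 d and 33.1, 30.1 and 34.0 at 6 d. Its log2 difference of -1.04 rested on the second 0 d library, without which it was -0.55, and the call was also lost without any 1 of the 6 d libraries, at -0.99 to -1.08 with adjusted p of 0.0621 to 0.0825, under rescaling (0.0586) and in a fit of the 6 compared libraries alone (0.119).

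All 12 inhibitors of the pathway were tested. At 3 d 1 rose and 2 fell, at 6 d 0 changed by limma with 5 of the 12 at an unadjusted p under 0.05, and at 9 d 2 rose, while 23.3%, 11.4% and 10.9% of all mRNAs changed. The medians were -0.16, -0.22 and 0.36, against -0.06, -0.15 and -0.19 over all mRNAs. SPRY3 had 0.20, 0.22 and 0.25 FPKM at 0 d and 4.16, 3.61 and 3.80 at 3 d, and did not exceed 0.45 later. SPRY4 had 14.2, 14.3 and 13.7 at 0 d, 4.45, 3.24 and 4.24 at 3 d, 8.48, 9.58 and 11.5 on day 6, and 31.4, 30.6 and 27.7 on day 9. These Sprouty genes thus stood at opposite ends at 3 d, with log2 fold changes of 3.61 ± 0.12 and -1.81 ± 0.13. At 9 d SPRY4 was above every other library, by 1.08 on the log2 scale against 0 d (limma adjusted p = 0.00017). DUSP5, a nuclear phosphatase that acts on ERK, had means of 34.9, 30.6, 39.9 and 109 FPKM and rose by 1.64 at 9 d. SPRED3 fell by 1.79 at 3 d, a call lost with a pseudocount of 1, at -0.58. CBL, a ubiquitin ligase and the most abundant of the list, did not reach the fold threshold at any day.

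Of 12 genes known to respond to FGF and ERK signalling, 11 were tested. At 3 d 2 rose and 6 fell, at 6 d 1 fell, and at 9 d 2 rose, compared with 23.3%, 11.4% and 10.9% of all mRNAs changed. The median log2 fold change was -1.56, -0.17 and 0.73, against -0.06, -0.15 and -0.19 over all mRNAs. CCND1, which drives entry into the cell cycle and had the highest mean of the list over the 12 libraries, was at 85.7, 79.2 and 87.5 FPKM at 0 d and 3.94, 4.42 and 3.73 at 3 d. It had 47.8, 50.1 and 51.2 at 6 d and 197, 184 and 183 at 9 d. The days did not overlap, with a log2 fold change of -4.35 ± 0.07 at 3 d (limma adjusted p = 7.72e-11) and 1.16 ± 0.07 at 9 d (1.57e-06). FOSL1, a member of the AP-1 complex, had means of 36.4, 4.45, 15.8 and 60.7 FPKM and fell by 3.00 at 3 d and by 1.21 at 6 d. The ETS factors ETV5 and ETV1 fell at 3 d by 2.34 and 3.05, and their levels were low, with 0.83 to 0.93 FPKM for ETV5 and 0.77 to 2.86 for ETV1 in the 0 d libraries. The call of ETV5 was lost with a pseudocount of 1, at -0.77. The genes that rose at 3 d were MYC and PHLDA1, with log2 fold changes of 1.56 and 1.24. These lists hold genes that other pathways also regulate. The summed smooth muscle and pericyte markers were also lowest at 3 d, where 4 of the 5 tested fell (15.2% of all mRNAs fell) and none rose. MYH11 did not pass there and went the other way, with daily means of 23.3, 57.2, 33.9 and 20.6 FPKM. The part of these markers in the values of the responding genes was not tested.

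**Figure D5:**
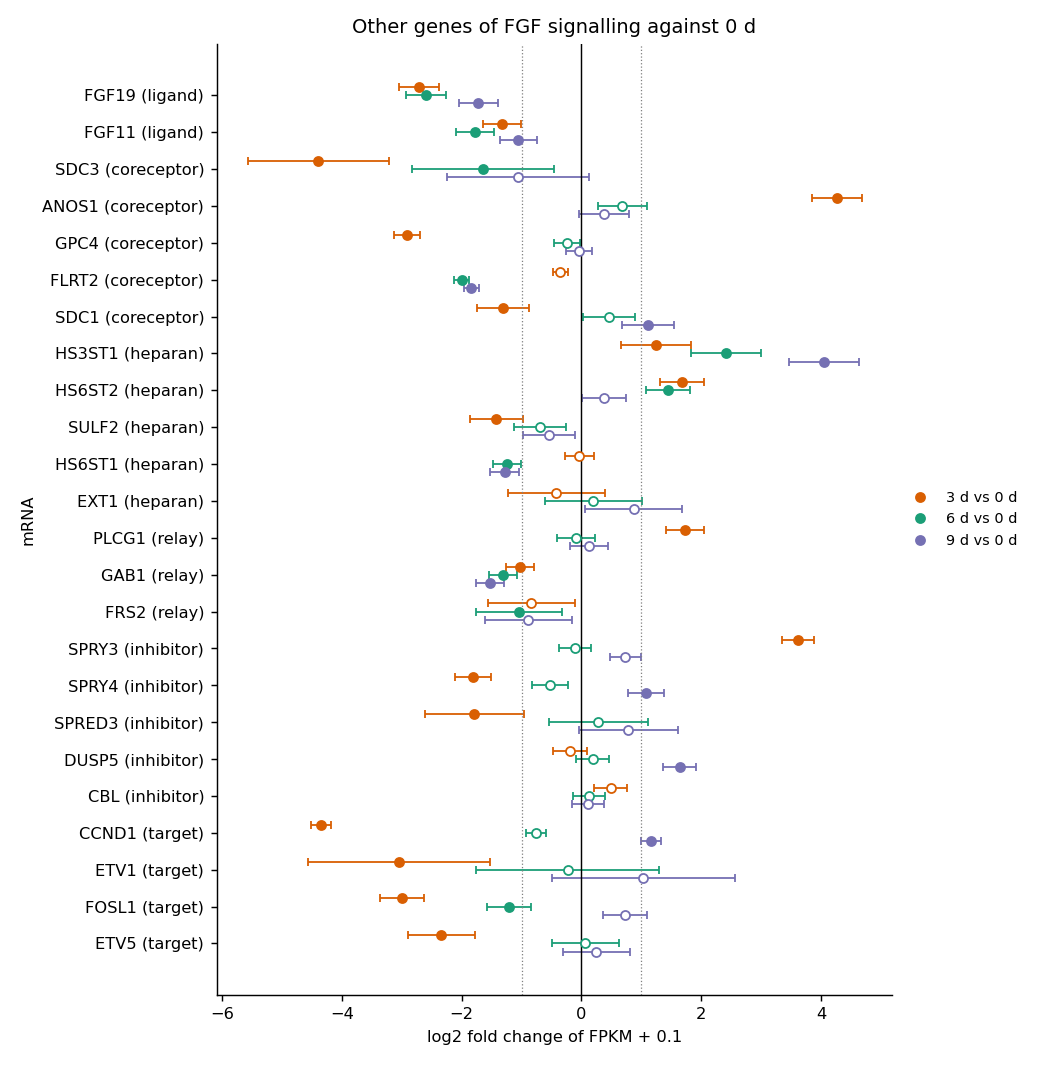
Log2 fold change of FPKM + 0.1 against 0 d for the other named genes of FGF signalling, by list, at 3 d, 6 d and 9 d. Points are limma estimates with 95% confidence intervals, filled where the test was passed, and dotted lines mark the fold threshold. CCND1 has -4.35 at 3 d, and ANOS1 and SPRY3 have 4.26 and 3.61. The FGF19 values rest on the pseudocount, since it was listed at 0 at 3 d.

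For each member with a mean of at least 1 FPKM, the 3 mRNAs of most similar pattern were taken by Pearson's r of log2(FPKM + 0.1) over the 12 libraries, which share the 4 days, among 11330 mRNAs. FGF10 was closest to the row shared by RNASE4, ANG2 and ANG (r = 0.997), to ENPP1 (0.993), a phosphodiesterase of the cell surface, and to MESD (0.993), a chaperone of LDL receptor family proteins. ENPP1 had daily means of 2.67, 295, 35.9 and 19.9 FPKM, the same order of days as FGF10. FGF1 was closest to NR4A1 (0.956), PDPN (0.955) and TPST2 (0.9545). FGF2, with its wide spread, was closest to COA3 (0.928), NRARP (0.921) and TBC1D9B (0.870).

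FGFR1 was closest to FLRT2 (0.9845), which is also in the list of co-receptors, then to PLXDC1 (0.983) and CPT1A (0.981), the enzyme that admits fatty acids to mitochondrial oxidation. CPT1A had daily means of 1350, 1385, 266 and 347 FPKM. FGFR2 was closest to DLGAP5 (0.968), a mitotic spindle protein, SMARCC1 (0.966) and SFXN2 (0.954). FGFR4 was closest to MYBPH (0.991), a myosin-binding protein, HNRNPF (0.9905) and BCAM (0.986). BCAM had daily means of 71.6, 33.1, 14.6 and 23.0 FPKM, against 94.9, 39.7, 19.9 and 29.1 for FGFR4. The row shared by DTWD1 and FGF7 was closest to NME8 (0.972), SAT1 (0.967) and LOC515551 (0.967). These values rank likeness over the 12 libraries and were not tested.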

How the data were processed

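RNA of 12 libraries, 3 per day at 0, 3, 6 and 9 d, was analysed from the processed tables. The mRNA levels were deposited as FPKM made by the authors, and the submitters' processing notes name HISAT2 2.0, StringTie 1.3.0 and Bowtie 0.12.2. Those notes name a mouse build, whereas the study's methods name the bovine ARS-UCD1.2, and the circRNA positions carry bovine chromosomes. The labels describe poly(A) selection and the methods strand-specific libraries after rRNA depletion. The doses printed are those of the labels. The methods give another insulin dose and also a dexamethasone dose, which the labels state in a unit that cannot be right and which is not printed here. For circRNAs, the authors deposited back-spliced read counts and a coverage signal, back-spliced reads scaled to mapped reads. Of the 33714 mRNA rows, 727 were shared by several genes. Each was fitted as 1 row.

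The FPKM of all libraries were fitted with limma 3.58.1 (R 4.3.3, trended variance) on log2(FPKM + 0.1), with a mean for each day and a filter at a mean of 0.1 FPKM. The p-values were adjusted by the Benjamini-Hochberg method over all 15401 rows tested, and calls needed a log2 fold change over 1. The circRNA counts with at least 5 reads were tested with edgeR 4.0.16 (quasi-likelihood, TMM) and, as an alternative, DESeq2 1.42.0. The mRNA and edgeR fits were tested on simulated data. Alternatives were other pseudocounts, filters and scalings, the 6 compared libraries alone, the replicate number as a block, and leaving out each library.

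The members and lists were chosen with earlier results of these data known. The genes named were the members, up to 4 genes per pathway list with the largest change among those called without overlap of the libraries, the most abundant gene of most lists and the 3 mRNAs most like each member. MYC, PHLDA1, MYOD1, NUDT6, FGF22, DLK1, ADIPOQ, CEBPA, LEP, LPL, CIDEC, COL1A1, COL1A2, PDGFRB, MYH11, CKM, TOP2A and CDK1 were named after their values were seen. The study gives 3 biological replicates per day and speaks of 1 batch of cells followed over the days. How many animals these came from is not stated, so p-values measure the spread between these cultures. Long noncoding RNA and miRNA tables were left out because they hold none of the FGF genes.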

Additional observations from a re-analysis of the deposited data

How the results depend on the processing

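The members called in the comparisons with 0 d numbered 4, 3 and 3 at 3 d, 6 d and 9 d, and those between later days 2 (6 d vs 3 d), 1 (9 d vs 6 d) and 3 (9 d vs 3 d). With a pseudocount of 1, 2 were called for 3 d vs 0 d (FGF5 and FGFR2 lost), 2 for 6 d vs 0 d (FGFR3 lost) and 1 for 6 d vs 3 d (FGF5 lost). With a pseudocount of 0.01, 4, 4 and 4 were called against 0 d and 3, 1 and 4 between later days, as FGF1 at 6 d vs 0 d (-1.07), FGFR3 at 9 d vs 0 d (-1.13), FGFR4 at 6 d vs 3 d (-1.0009) and FGF5 at 9 d vs 3 d (1.67) passed. With no filter 5 were called for 3 d vs 0 d, FGF18 being added. With the pseudocount of 1 the counts over all mRNAs fell to 2184, 967 and 888 against 0 d, 1688 (6 d vs 3 d), 368 (9 d vs 6 d) and 1863 (9 d vs 3 d), in place of 3585, 1749, 1675, 2939, 683 and 3157, and with 0.01 they were 3892, 1918, 1883, 3258, 780 and 3518. A filter at a mean of 1 FPKM removed FGF5 and FGFR3, leaving 1 member for 6 d vs 3 d, and gave 1114 mRNAs for 9 d vs 0 d. Leaving out 1 library gave 2 to 4 members for 3 d vs 0 d, 3 to 4 for 6 d vs 0 d, 3 to 5 for 9 d vs 0 d, 2 to 4 for 6 d vs 3 d, 1 to 2 for 9 d vs 6 d and 3 for 9 d vs 3 d. Without the third 0 d library, 5 were called at 9 d, FGF2 and FGFR3 being added. FGF2 changed sign between 9 d and 6 d without the first 6 d library (range -0.0554 to 0.9338, main value 0.52) and between 9 d and 3 d without the second 9 d library (range -0.6185 to 0.0861, main value -0.33), neither past the threshold. With the row shared by DTWD1 and FGF7 counted, an alternative chosen after seeing the data, the members called were 5, 3 and 4 against 0 d and 3, 1 and 3 between later days. The replicate numbers did not pair the libraries, since deviations of same-numbered libraries correlated at -0.10 to 0.11 in 18 pairs, 2 of them over 0.1. With the replicate number as a block, 5, 3 and 3 members and 3591, 1746 and 1683 mRNAs were called against 0 d, FGF2 at 3 d being the member added (2.37, limma adjusted p = 0.0465), while SDC3 at 6 d lost its call (0.0672). No circRNA of a member gene was called under any alternative run, with DESeq2, other filters, the block or 1 library left out. Only 1 such circRNA, circRNA1322, was tested in the main fit, so these counts do not measure stability. The FPKM unit does not give the reads behind a value, which limits what can be read from FGF5, FGF18 and FGFR3, and circRNA1322 rests on 83 reads.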
